A study of Mus musculus with 9 samples.

Results

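A group of 310 nuclei from mouse cortex and hippocampus, here called deep intratelencephalic-like (deep IT-like) nuclei, was described by its expression profile, by its frequency in each mouse, and by its response to age and to a virus that expresses the enzyme B3GNT3. The members were picked nucleus by nucleus from single-nucleus RNA sequencing counts, in unique molecular identifiers (UMIs), each of which stands for 1 captured RNA molecule. A member had at least 2 UMIs of Slc17a7, the vesicular glutamate transporter of cortical excitatory neurons, and at most 1 UMI of Gad1 and Gad2 together, the enzymes that make GABA. At least 2 of the 5 marker genes Rxfp2, Col24a1, Oprk1, Dnah14 and Blnk had to be found with 1 UMI or more. Nuclei with 5 or more UMIs of Hs3st4 or of Rorb, 3 or more of Cux2, or any of Prox1 were left out, which sets limits against corticothalamic, layer 4, upper-layer and dentate granule neurons. The 310 members came from 74895 nuclei with 200 to 5000 genes and at most 10% mitochondrial UMIs, and from 8964 glutamatergic nuclei among them, as defined by the Slc17a7 and GABA limits.

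Intratelencephalic neurons are excitatory neurons of the cortex whose axons stay within the cortex and striatum, in contrast to neurons that project to the thalamus, brainstem or spinal cord. In layers 5 and 6 they send long axons between the hemispheres and to other cortical areas, and they are told apart from their neighbours by transcripts such as those of Oprk1. Oprk1 encodes the κ-opioid receptor, which responds to dynorphin and lowers excitability and transmitter release. Rxfp2 encodes the receptor for insulin-like peptide 3, Col24a1 a fibrillar collagen, Dnah14 a heavy chain of axonemal dynein, and Blnk an adaptor protein best known from B cell receptor signalling. On the GRCm38 build, the 5 genes lie on separate parts of the genome, with Oprk1 at chr1:5588466-5606131, Dnah14 at chr1:181576559-181815774, Col24a1 at chr3:145292472-145552011, Rxfp2 at chr5:150018675-150082184 and Blnk at chr19:40928927-40994535.

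The 9 libraries came from 9 male wild-type C57BL/6 mice, 1 library per mouse and 3 mice per group, with cortex and hippocampus pooled. Nuclei were stained for DNA and for NeuN, a neuronal marker, and sorted as single nuclei before 10x Genomics 3′ library preparation. Whether NeuN was used to select nuclei was not given. The young AAV-EGFP mice (5 months) and the aged AAV-EGFP mice (19 months) received the control virus, which carries the fluorescent protein EGFP, and the aged AAV-B3GNT3 mice (19 months) received the virus for B3GNT3, an enzyme that extends core 1 mucin-type O-glycans. All 9 mice thus carried an adeno-associated virus with the PHP.V1 capsid, which favours brain endothelial cells, and a shortened CLDN5 promoter, which is active in endothelium, for 8 weeks. The virus was not aimed at neurons, and B3gnt3 had 0 UMIs in the members of all 9 mice, which allows a level of up to 0.722 CPM, or UMIs per 1000000, by counting error alone. That bound holds for the mouse gene as annotated on GRCm38. Transcripts of the virus itself were not counted, so the 0 does not show whether members carried them. No untreated mice were analysed here.

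The libraries held 47332047 to 79964605 UMIs, and the members 264283 to 770008 UMIs per mouse, with a median of 10544 to 14856 UMIs per member. Of 77081 distinct barcodes, 734 occurred in more than 1 library, and 3 members had a barcode that another library also held. An estimate of free RNA, scaled to the oligodendrocyte markers of the members, gave 4.31% of member UMIs in aged AAV-EGFP mouse 1 and 10.2 to 20.8% in the other 8 mice. It used the summed profile of the barcodes in the filtered matrix, not of barcodes without a nucleus. Every UMI of these markers was taken as free RNA. A doublet score marked 17 of the 310 members (5.48%) and 7.22% of all glutamatergic nuclei.

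Most members were picked through Blnk, Dnah14 and Oprk1, and fewer carried the collagen gene. Blnk was found in 245 of 310 members (79.0%), Dnah14 in 168 (54.2%), Oprk1 in 134 (43.2%), Rxfp2 in 69 (22.3%) and Col24a1 in 66 (21.3%). The most frequent combination was Dnah14 with Blnk alone, in 78 members, followed by Oprk1 with Blnk in 64, Rxfp2 with Blnk in 34 and Oprk1 with Dnah14 in 25. Col24a1 or Oprk1, the genes that lend the population its working name, were found in 176 members (56.8%), 24 of them with both, and the other 134 members had neither. Exactly 2 markers were found in 253 members, 3 in 52 and 4 in 5. These values follow from the selection and are given as a description.

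The receptors for opioids and for insulin-like peptide 3 were seldom found in the same nucleus. Of the 69 members with Rxfp2, 8 (11.6%) also held Oprk1 and 7 (10.1%) Col24a1, whereas 54 (78.3%) held Blnk. Of the 134 members with Oprk1, 95 (70.9%) held Blnk, 49 (36.6%) Dnah14 and 24 (17.9%) Col24a1. A nucleus needs a second marker to be a member, so these shares are bound to each other by the rule and carry no test.

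For comparison, of 18061 oligodendrocyte nuclei, 0.199% held at least 1 UMI of Rxfp2, 0.520% of Col24a1, 0.581% of Oprk1, 2.08% of Blnk and 4.56% of Dnah14. Their median depth was 2152 UMIs, against 12986 in the members, and 0.349% of them had at least 2 of the 5 markers. Among glutamatergic nuclei of like depth, 6.78% of 2226 nuclei with 3 or more Cux2 UMIs (Cux2 neurons, median 13567 UMIs) had 2 or more markers, as did 4.17% of 2737 nuclei with 5 or more Hs3st4 UMIs and Rorb and Cux2 below their limits (Hs3st4 neurons, median 12896 UMIs). Col24a1 was not particular to the members in level: it stood at 28.4 CPM over the pooled members, 24.8 in Cux2 neurons and 14.3 in Hs3st4 neurons. Oprk1 stood at 51.5, 14.8 and 3.43 CPM and Rxfp2 at 38.3, 0.422 and 7.69 CPM in the same order.

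Many nuclei lay close to the limits. Of the members, 136 had exactly 2 Slc17a7 UMIs, 34 had 3 or 4 Hs3st4 UMIs and 29 had 1 UMI of Gad1 or Gad2. Just outside, 154 nuclei met every limit except that they had 1 Slc17a7 UMI. Of 651 glutamatergic nuclei with at least 2 markers, 341 were not members, 255 of them with Hs3st4, 158 with Cux2, 69 with Rorb and 26 with Prox1 beyond the limit, some with more than 1 of these.

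Some marker genes of deep intratelencephalic neurons were higher in the members and others were not. Levels here are means over 9 mice, compared with all other glutamatergic nuclei. Of 10 deep intratelencephalic markers other than those of the rule, Sulf1, Cdh9 and Col27a1 were higher by at least 1 on the log2 scale, Etv1 was lower (25.9 against 53.3 CPM), and the 6 others, Deptor, Pld5, Osr1, Penk, Col23a1 and Adamts2, lay within 1 log2 unit. Summed over these 10 genes the members held 782 CPM, other glutamatergic nuclei 374, Cux2 neurons 234 and Hs3st4 neurons 394 CPM. The label thus rests on 3 of these 10 genes, which are also among the 5 leading genes of the profile drawn from the same nuclei and so no independent evidence, and the layer of a nucleus was not measured.

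Markers of most other excitatory classes were lower in sum than in the other glutamatergic nuclei. Those nuclei include the ones that the limits on Hs3st4, Rorb, Cux2 and Prox1 kept out of the members. Lower corticothalamic, layer 2/3 and dentate sums thus follow in part from the rule and are no independent evidence. The 6 markers of upper-layer 2/3 neurons summed to 92.7 CPM in the members and 253 in other glutamatergic nuclei, the 6 corticothalamic markers to 242 and 680.2, and the 8 near-projecting markers to 42.6 and 300.3. Markers of layer 5 extratelencephalic neurons summed to 167 and 269.5 CPM, of layer 6b to 49.9 and 89.3, of hippocampal CA1 and subiculum to 221 and 293, of CA3 and CA2 to 469 and 609.96, and of dentate granule cells to 338 and 564. Layer 4/5 markers stood at 307 and 292 CPM, and claustrum, endopiriform and Car3 markers at 594 and 399.9 CPM. The layer 2/3 and dentate sums were above those of Hs3st4 neurons (83.4 and 306 CPM). The layer 5 extratelencephalic and CA1 and subiculum sums were above those of Cux2 neurons (95.9 and 189 CPM). Corticothalamic, near-projecting, layer 6b and CA3 and CA2 sums were below those of both classes, at 267, 258, 90.7 and 617 CPM in Cux2 neurons. The claustrum, endopiriform and Car3 sum was 562 CPM in Cux2 and 289 in Hs3st4 neurons. Fezf2, a factor of layer 5 neurons that project out of the telencephalon, stood at 2.45 against 10.8 CPM. Of the claustrum and endopiriform markers Ntng2 was higher and Synpr lower, and Car3, which names a group of lateral intratelencephalic neurons, was near 0 in both, at 0.955 and 0.638 CPM.

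Markers of cells other than excitatory neurons were at or below their level in the other glutamatergic nuclei in all but the vascular and striatal lists. GABAergic markers summed to 68.3 CPM in the members and 195 in the others, oligodendrocyte markers to 227 and 316, astrocyte markers to 122 and 211, and microglial markers to 35.97 and 39.9. Markers of oligodendrocyte precursors summed to 6.64 and 8.86 CPM, and those of fibroblasts and choroid plexus to 31.6 and 65.4 CPM. Endothelial and mural markers summed to 12.8 and 8.92 CPM, and striatal markers to 1734 and 1661, of which Pde10a, which cortical neurons also transcribe, made up 1675 and 1623 CPM. Of the dentate granule markers Dsp and C1ql2 had 0 UMIs in the members, though that list summed to 338 CPM, above the 306 CPM of Hs3st4 neurons. In other excitatory lists the layer 4/5 markers Rspo1 and Endou, Chrna2 (layer 5 extratelencephalic), Slc17a8 (near-projecting) and Iyd (CA3 and CA2) also had 0 UMIs.

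Galnt14, Spag16, Col27a1, Sulf1 and Cdh9 led the profile. With all rule genes left out, 33 genes with at least 20 CPM in the members were higher than in other glutamatergic nuclei in all 9 mice by a mean of 1 log2 unit or more, and 157 genes with at least 20 CPM in the others were lower. The selection used these nuclei against the rest, so the differences, on the log2(CPM + 5) scale and as mean ± SD over 9 mice, are a description with no test. The heat map of levels sets the 20 leading and 10 trailing genes of the members beside 3 other classes of glutamatergic nuclei.

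**Figure D1:**
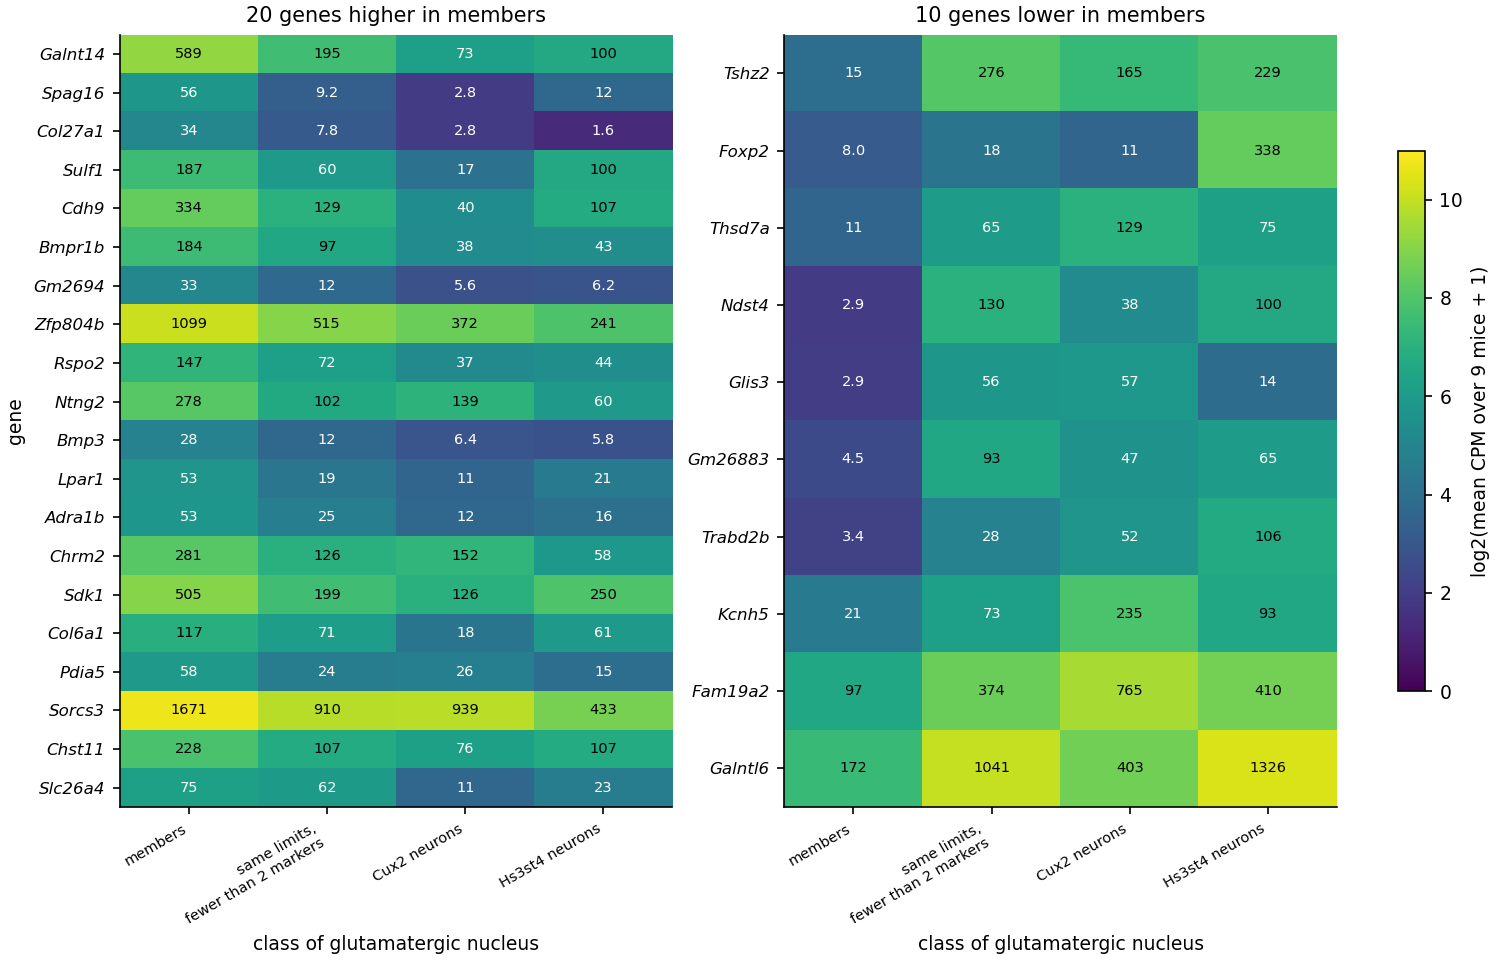
Mean CPM over 9 mice of the 20 genes with the largest positive (left) and the 10 with the largest negative (right) log2 difference between members and other glutamatergic nuclei, in members and 3 other classes (columns). Colour gives log2(mean CPM + 1) and the printed number the mean CPM. Galnt14 stands at 589 CPM in members and at 72.7 to 195 in the other columns.

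Galnt14, which starts mucin-type O-glycan chains by adding N-acetylgalactosamine, had the largest difference, 2.33 ± 0.28, with 589 ± 139 CPM in the members against 112 ± 23.3 CPM in other glutamatergic nuclei. Its level ranged from 318 to 743 CPM over the members of the 9 mice and from 73.9 to 149 in the other nuclei. The 2 ranges did not overlap.

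Sulf1, which removes sulfate from heparan sulfate, stood at 187 ± 37.6 against 55.7 ± 12.7 CPM (1.67 ± 0.33), and Chst11, which sulfates chondroitin, at 228 ± 58.4 against 92.5 ± 25.96 CPM (1.26 ± 0.19). The collagen genes Col27a1 (33.5 against 3.67 CPM, 1.89 ± 0.86) and Col6a1 (117 against 43.5 CPM, 1.29 ± 0.41) belonged to the same 20 genes. Of these 4 genes Col27a1 varied most among the mice, from 7.14 to 64.9 CPM.

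Adhesion genes in the group were Cdh9, a classical cadherin (334 against 96.4 CPM, 1.66 ± 0.35), Ntng2, which encodes netrin-G2 (278 against 96.2, 1.41 ± 0.49), and Sdk1, an immunoglobulin-type adhesion molecule (505 against 199, 1.30 ± 0.42). Receptors were Bmpr1b, for bone morphogenetic proteins (184 against 54.8 CPM, 1.64 ± 0.38), Chrm2, the M2 muscarinic acetylcholine receptor (281 against 109, 1.31 ± 0.25), Adra1b, an α1 adrenergic receptor (53.3 against 17.3, 1.35 ± 0.41), and Lpar1, for lysophosphatidic acid (52.6 against 16.5, 1.38 ± 0.47). Secreted factors were Rspo2, an enhancer of Wnt signalling (147 against 46.6 CPM, 1.53 ± 0.39), and Bmp3 (28.1 against 7.05, 1.39 ± 0.39).

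The most abundant of the 20 genes were Sorcs3, a sorting receptor, at 1671 ± 178 against 690.4 ± 80.5 CPM (1.27 ± 0.18), and Zfp804b, at 1099 ± 396 against 352 ± 68.4 CPM (1.58 ± 0.30). The remaining 4 were Spag16 (55.8 against 7.33 CPM, 1.90 ± 1.17), Slc26a4, an anion exchanger (74.7 against 28.4, 1.20 ± 0.44), Pdia5 (58.3 against 19.6, 1.29 ± 0.42) and the unnamed transcript Gm2694 (33.3 against 7.13, 1.63 ± 0.26). Spag16 was the least even among mice, from 5.47 to 118 CPM.

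The leading genes differed in how far they set the members apart from nuclei that met all the same limits but held fewer than 2 markers. Slc26a4 stood at 62.1 CPM in those 2114 nuclei and Col6a1 at 71.5 CPM, against 74.7 and 117 CPM in the members. Galnt14 stood at 195 CPM and Col27a1 at 7.75 CPM there.

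Genes low in the members included several that name other deep-layer neurons. Tshz2, a transcription factor gene of near-projecting neurons, stood at 14.5 CPM against 215 in other glutamatergic nuclei (-3.87 ± 1.24), and Foxp2, a factor of corticothalamic neurons, at 7.97 against 127 (-3.55 ± 0.88). Foxp2 was mainly in Hs3st4 neurons, at 338 CPM, while in Cux2 neurons it stood at 11.1 CPM. Against nuclei within the same limits but with fewer than 2 markers, which held 17.7 CPM, its difference was -1.02 ± 0.87, with members higher in 1 mouse. Tshz2, with 276 CPM in those nuclei (-4.26 ± 1.33), and Ndst4, with 129.9 CPM (-3.97 ± 0.93), were lower in the members of all 9 mice. The others were Thsd7a (11.2 against 155 CPM), Ndst4, a heparan sulfate sulfotransferase (2.91 against 80.2), the transcription factor Glis3 (2.94 against 65.4), Trabd2b (3.40 against 62.7), Gm26883 (4.52 against 65.2), the potassium channel Kcnh5 (21.4 against 164), Fam19a2 (96.8 against 618) and Galntl6, a relative of Galnt14 (172 against 1019).

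Levels of profile genes varied with the number of markers found in a nucleus. These genes were chosen by their difference between the members and other glutamatergic nuclei, which include those with 0 or 1 marker. The contrast of 0 or 1 with 2 or more markers is thus built in by the choice and is a description only. Among all nuclei within the limits on Slc17a7, Gad1, Gad2, Hs3st4, Rorb, Cux2 and Prox1, 1457 had 0 of the 5 markers, 657 had 1, 253 had 2 and 52 had 3, besides 5 with 4. Galnt14 stood at 127, 329, 553 and 605 CPM over the first 4 of these sets, each pooled, Sulf1 at 31.4, 112, 181 and 224, and Col27a1 at 3.19, 14.1, 32.7 and 49.8. In the opposite direction Tshz2 stood at 381, 86.2, 13.0 and 5.86 CPM and Ndst4 at 169.6, 55.8, 2.36 and 2.93. The 5 nuclei with 4 markers did not carry the steps of Galnt14 and Sulf1 on, with 429 CPM from 35 UMIs and 98.1 CPM from 8 UMIs, and held 134.9 CPM of Col27a1 from 11 UMIs. The median depth was 10252, 12186, 12940 and 12386 UMIs in the same order, so the step from 0 to 1 marker was also a step in depth, and its part was not tested.

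**Figure D2:**
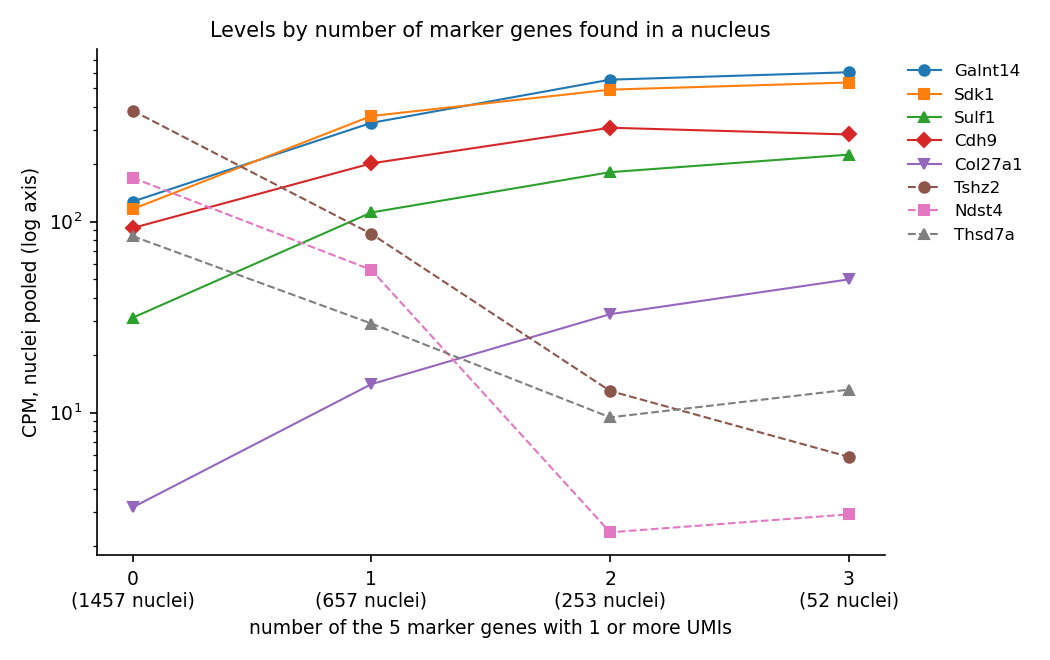
Level of profile genes, in CPM on a log axis, in pooled nuclei that meet the limits on glutamatergic, Hs3st4, Rorb, Cux2 and Prox1 counts, by the number of the 5 marker genes found in a nucleus. Over the 4 sets plotted, which leave out the 5 nuclei with 4 markers, Galnt14 is higher at each step, from 127 CPM with 0 markers to 605 with 3, and Tshz2 lower at each step, from 381 to 5.86 CPM, whereas from 2 to 3 markers Cdh9 goes from 309.9 to 286 CPM and Thsd7a from 9.43 to 13.2 CPM.

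The members with and without Oprk1 differed in the cation channel gene Trpc6, among others. Of genes higher with Oprk1, Trpc6, a cation channel of the TRP family, stood at 118 CPM in the 134 members with Oprk1 and 42.1 CPM in the 176 without, Grin3a, an NMDA receptor subunit, at 60.3 and 18.6, and Angpt1, angiopoietin 1, at 57.8 and 16.4. The other 5 of the 8 genes were C130073E24Rik (47.4 and 8.97 CPM), 6530403H02Rik (310.0 and 88.1), 1810041L15Rik (23.8 and 4.64), March3 (45.6 and 13.97) and Vwc2l (36.6 and 8.11). Trpc6 also belongs to the dentate granule markers above, and Vwc2l to the near-projecting markers.

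In the members without Oprk1, Ptprm, a receptor phosphatase, was higher, at 83.5 CPM against 9.14 with Oprk1, as were Pdzrn3 (259 against 45.7), Hgf, hepatocyte growth factor (42.7 against 9.97), and Cpne8 (58.3 against 8.77). Chn2, Ndst3 and Bicc1 were also among these genes, at 49.3, 112 and 54.8 CPM against 9.29, 36.7 and 13.3. The 20 leading genes of the shared profile had means above those of other glutamatergic nuclei in both subsets. Galnt14 was at 751 CPM with Oprk1 and 437 without, Cdh9 at 445 and 192, and Chrm2 at 337 and 222, each higher with Oprk1 in 9 of 9 mice. The genes that differ with Oprk1 were chosen by their difference, which therefore has no test.

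The members made up a few percent of glutamatergic nuclei in every mouse, and no difference in their share between groups passed the test. In the young AAV-EGFP mice they were 2.22, 2.74 and 2.53% of glutamatergic nuclei, from 24, 34 and 30 members. In the aged AAV-EGFP mice they were 2.35, 4.43 and 7.02%, from 18, 48 and 63 members, and in the aged AAV-B3GNT3 mice 4.55, 2.36 and 3.73%, from 32, 24 and 37 members. The aged AAV-EGFP mice spanned nearly the whole range, and their lowest value lay within the young group's range.

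The means were 2.50 ± 0.26% (SD, n = 3) in the young AAV-EGFP, 4.60 ± 2.34% in the aged AAV-EGFP and 3.55 ± 1.10% in the aged AAV-B3GNT3 mice, with an exact permutation p = 0.26 over the 3 groups (280 partitions, F statistic). Aged AAV-EGFP minus young AAV-EGFP was 2.10 percentage points (two-sided exact permutation p = 0.30), and aged AAV-B3GNT3 minus aged AAV-EGFP was -1.05 (exact permutation p = 0.70), where 3 mice against 3 cannot give a p below 0.1. Exact 95% binomial intervals of single mice, which cover counting error only, ran from 1.43 to 3.29% in young mouse 1, the lowest, and from 5.43 to 8.89% in aged AAV-EGFP mouse 3, the highest. Without aged AAV-EGFP mouse 3 the difference with age was 0.893 percentage points, and without aged AAV-EGFP mouse 1 it was 3.23. The difference with AAV-B3GNT3 was 0.156 percentage points, of the opposite sign, without aged AAV-EGFP mouse 3, and -2.18 without aged AAV-EGFP mouse 1. With each nucleus thinned to 8000 UMIs, a depth chosen after the data were seen that left out 99 to 309 shallower glutamatergic nuclei per mouse, the means were 2.38, 4.39 and 3.50% (exact permutation p = 0.43). With nuclei thinned to 3000 UMIs, where 0 to 7 members per mouse were found, the difference with age was 2.52 percentage points and that with AAV-B3GNT3 -0.91 (exact permutation p = 0.16 over the 3 groups).

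**Figure D3:**
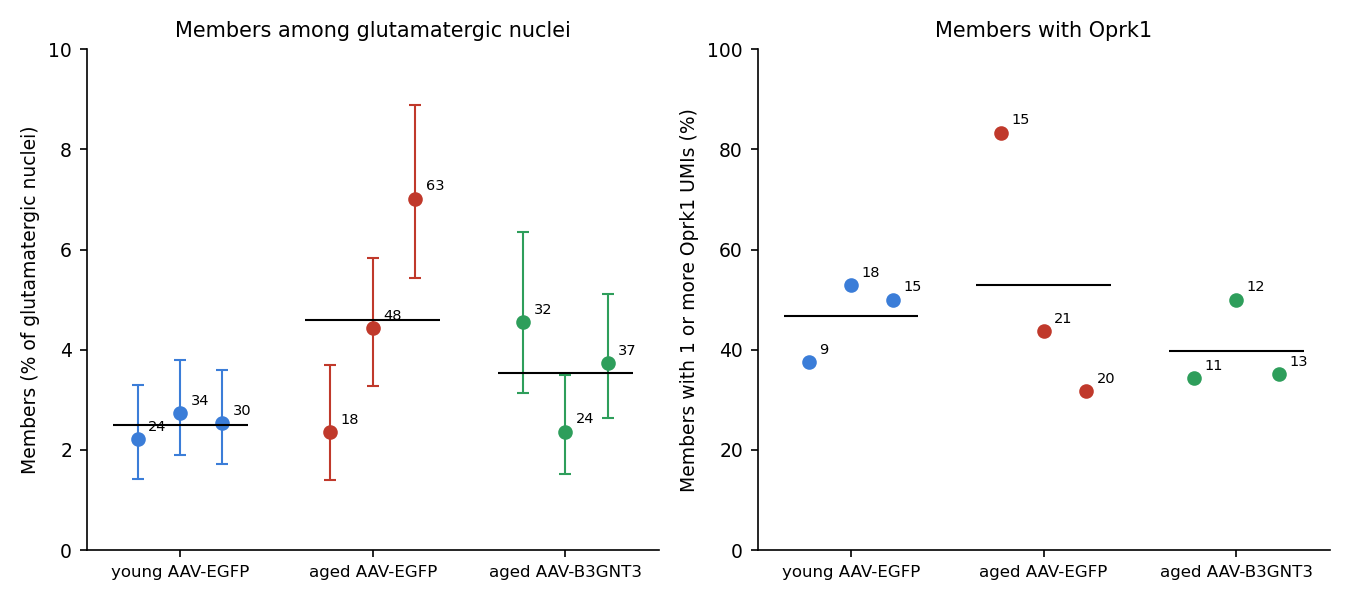
Members as a percent of glutamatergic nuclei (left) and members with Oprk1 as a percent of members (right), 1 point per mouse. A black line marks the group mean. Error bars, on the left only, are exact 95% binomial intervals of single mice, which cover counting error and not the spread between mice. The 3 groups overlap in both panels, and aged AAV-EGFP mouse 1 lies highest on the right, at 83.3%.

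The mix of members also varied among mice. Oprk1 was found in 9 of 24, 18 of 34 and 15 of 30 members of the young AAV-EGFP mice (37.5, 52.9 and 50.0%), and in 11 of 32, 12 of 24 and 13 of 37 members of the aged AAV-B3GNT3 mice (34.4, 50.0 and 35.1%). In the aged AAV-EGFP mice it was found in 15 of 18, 21 of 48 and 20 of 63 members (83.3, 43.8 and 31.7%), and the groups overlapped (exact permutation p = 0.79). Aged AAV-EGFP mouse 1 thus had the fewest members, the highest share with Oprk1 and the lowest estimate of free RNA. Without it all 24 genes that passed with age below and the 1 that passed with AAV-B3GNT3 still passed, among 73 and 5 genes. Differences of some genes that did not pass, such as Cdh9 and Dcc with AAV-B3GNT3, were smaller without it.

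The comparison of aged with young AAV-EGFP mice asks what differs with age in these neurons. That of aged AAV-B3GNT3 with aged AAV-EGFP mice asks what the endothelial enzyme changes in them. The study took aged mice from a National Institute on Aging colony and young mice from Jackson Laboratories. Age and source of the mice therefore cannot be told apart in the first comparison. UMIs were summed over the members of each mouse and tested with edgeR's quasi-likelihood method, and values per mouse below are CPM scaled by the trimmed mean of M values (TMM). Differences are log2 fold changes ± SE with n = 3 mice per group, and a gene passed the test at a Benjamini-Hochberg adjusted p under 0.05 over all genes tested. Both comparisons share the aged AAV-EGFP mice, so a high or low value there enters them with opposite signs.

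With age, Cacng2, Dlg4, Spred2, Pde4a, Mical2, Nrp1 and Gfra1 were among the genes that fell in the members, and Sorcs1, Fth1 and Ubb were among those that rose. Of 6282 genes tested 24 passed (0.382%), 16 lower (0.255%) and 8 higher (0.127%) in the aged AAV-EGFP mice, and 828 (13.2%) had an unadjusted p under 0.05. The groups did not overlap for any of the 24, as for 1043 of all genes tested (16.6%, with 8.04% higher and 8.56% lower in the aged mice). With each of the 9 mice left out in turn, all 24 kept their direction but none passed in all 9 fits, from 1 fit for Sorcs1 to 7 for Cacng2. Of the marker lists, 2 did not overlap between these groups either. The 8 layer 5 extratelencephalic markers summed to 169.5 to 203 CPM in the members of the young, 135 to 147 in those of the aged AAV-EGFP and 172 to 178 in those of the aged AAV-B3GNT3 mice, and the 7 glutamatergic markers to 1622 to 1843, 1538 to 1568 and 1469 to 1714 CPM. The 6 layer 6b markers summed to 58.8 to 119 CPM in the young and 19.1 to 60.7 CPM in the aged AAV-EGFP mice, and the 7 astrocyte markers to 128 to 167 and 89.6 to 178 CPM. The part of these lists in the changes was not tested. In summed counts, fewer nuclei of one kind among the members and less RNA per nucleus cannot be told apart.

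Cacng2, which encodes stargazin, an auxiliary subunit of AMPA receptors, measured 239.6, 158 and 190.1 CPM in the young AAV-EGFP, 81.8, 71.8 and 65.4 in the aged AAV-EGFP and 122, 167 and 140.4 in the aged AAV-B3GNT3 mice. All 3 aged AAV-EGFP mice lay below every other mouse. The change with age was -1.44 ± 0.22 (adjusted p = 0.0091), and that with AAV-B3GNT3 was 0.98 ± 0.22, which did not pass (adjusted p = 0.11).

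Dlg4, which encodes the postsynaptic scaffold PSD-95, measured 123, 160.0 and 188 CPM in the young AAV-EGFP, 77.7, 81.8 and 66.7 in the aged AAV-EGFP and 85.1, 141 and 87.3 in the aged AAV-B3GNT3 mice. It fell by 1.08 ± 0.23 on the log2 scale with age (adjusted p = 0.043), and passed in 3 of the 9 fits that left out a mouse (adjusted p up to 0.24). Srcin1, an adaptor that restrains the kinase Src at synapses, also fell (-0.85 ± 0.19, adjusted p = 0.043, passing in 2 of the 9 fits), with 323, 375 and 364 CPM in the young and 233, 174 and 191 in the aged AAV-EGFP mice. Tmem108, a membrane protein of dendrites, did so as well (-0.91 ± 0.18, adjusted p = 0.025). In both genes all young mice lay above all aged AAV-EGFP mice.

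Spred2, an inhibitor of the Ras to ERK cascade, measured 338, 233 and 415 CPM in the young AAV-EGFP, 143, 118 and 116 in the aged AAV-EGFP and 207, 300.2 and 235 in the aged AAV-B3GNT3 mice. The change with age was -1.41 ± 0.22 (adjusted p = 0.0091). Pde4a, a phosphodiesterase that breaks down cyclic AMP, measured 341, 265 and 349.6 CPM in the young and 184, 126 and 143 in the aged AAV-EGFP mice (-1.11 ± 0.20, adjusted p = 0.019). Mical2, an enzyme that oxidises actin filaments, measured 645, 459 and 622 and 217, 331 and 252 CPM (-1.09 ± 0.19, adjusted p = 0.019). In each of the 3 genes the aged AAV-EGFP mice lay below all young mice, and the aged AAV-B3GNT3 mice lay above all aged AAV-EGFP mice.

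These 3 genes were also lower in the members with Oprk1 than in those without in 9 of 9 mice, at 183 against 265 CPM for Spred2, 196 against 258 for Pde4a and 301 against 455 for Mical2. The part of the mix of members in their change with age was not tested.

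Among receptors for guidance and growth factors, Nrp1, which encodes neuropilin 1, a co-receptor for class 3 semaphorins, measured 258, 194 and 214 CPM in the young AAV-EGFP, 119, 126 and 94.7 in the aged AAV-EGFP and 89.5, 63.01 and 75.9 in the aged AAV-B3GNT3 mice. It fell by 0.99 ± 0.20 on the log2 scale with age (adjusted p = 0.029). Unlike the genes above, its values in the aged AAV-B3GNT3 mice lay below those of both other groups, although that difference did not pass (-0.52 ± 0.22, adjusted p = 0.45).

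Gfra1, a receptor subunit for glial cell line-derived neurotrophic factor, measured 169, 89.1 and 68.05 CPM in the young AAV-EGFP, 12.3, 37.9 and 28.02 in the aged AAV-EGFP and 28.4, 33.4 and 37.95 in the aged AAV-B3GNT3 mice. The 6 aged mice all lay below the 3 young mice. The change with age was -1.90 ± 0.35 (adjusted p = 0.019). In the members with Oprk1 it stood at 95.1 CPM and in the others at 30.01, higher with Oprk1 in 6 of 9 mice.

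The largest fitted fall was that of Ddah1, which breaks down methylated arginines that inhibit nitric oxide synthases, but it rests on few molecules. It had 13, 4 and 17 UMIs in the young AAV-EGFP mice, 1, 1 and 1 in the aged AAV-EGFP mice and 13, 5 and 11 in the aged AAV-B3GNT3 mice, for a change of -3.66 ± 0.73 with age (adjusted p = 0.025). Gm15083, at chr6:114004789-114052265 on the opposite strand to the calcium pump gene Atp2b2, had 17, 24 and 12 UMIs in the young and 4, 4 and 3 in the aged AAV-EGFP mice (-2.52 ± 0.50, adjusted p = 0.025). The other falls were Swt1 (-1.66 ± 0.33), Gm30382 (-1.37 ± 0.28), Lhfp (-1.27 ± 0.23), Herc4, a ubiquitin ligase (-0.98 ± 0.21), and 1700025G04Rik (-0.95 ± 0.20), with adjusted p of 0.019 to 0.043. Lhfp, Herc4, Gm30382, 1700025G04Rik, Tmem108, Srcin1, Ddah1 and Nrp1 overlap other annotated genes or pseudogenes on the same strand, and Cacng2 and Gfra1 on the opposite one, so the source of part of their UMIs is uncertain.

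**Figure D4:**
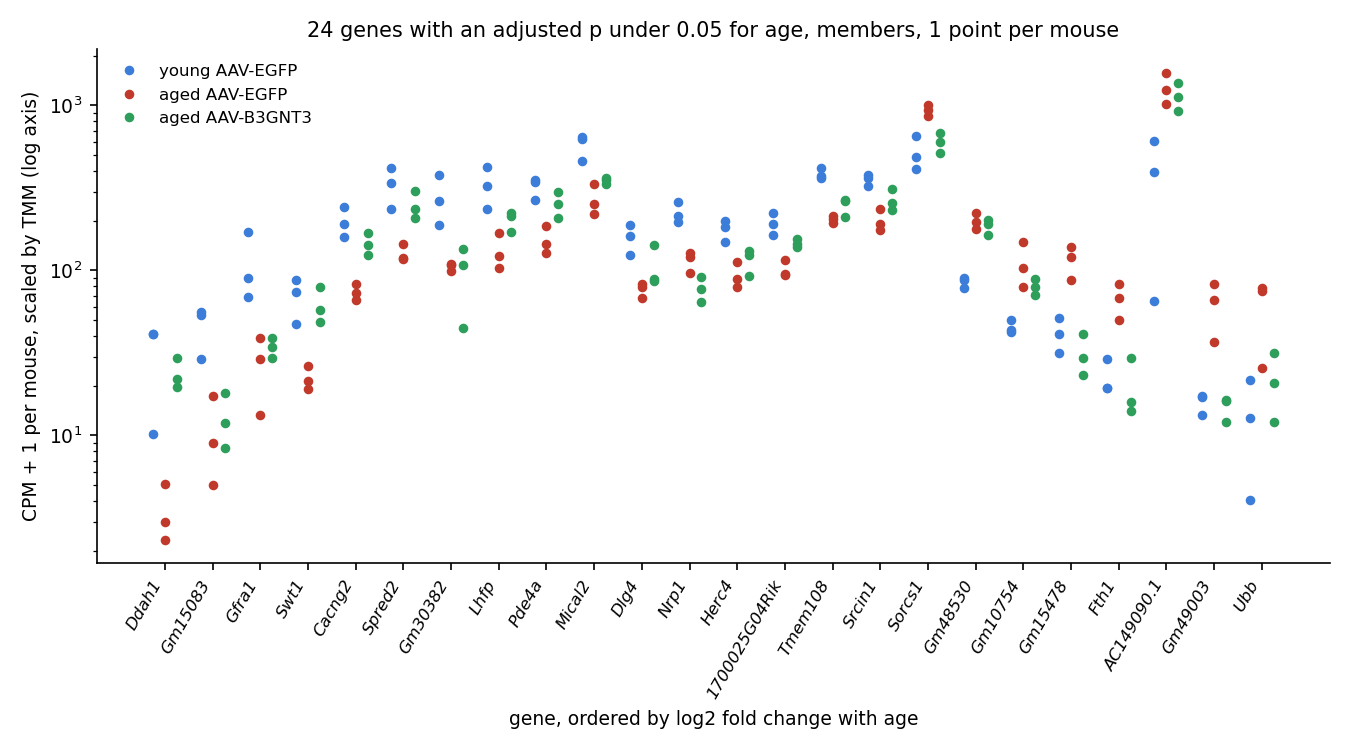
CPM + 1 per mouse, scaled by TMM, on a log axis, of the 24 genes with an adjusted p under 0.05 for age in the members, ordered by log2 fold change, with 1 point per mouse and colour by group. Young and aged AAV-EGFP mice do not overlap for any gene, and for Cacng2 the aged AAV-B3GNT3 mice (122 to 167 CPM) lie between the aged AAV-EGFP mice (65.4 to 81.8) and the highest young mouse (239.6).

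Among the 8 genes that rose, none of which passed with free RNA subtracted, Sorcs1, a sorting receptor related to the profile gene Sorcs3, measured 409, 482 and 655 CPM in the young AAV-EGFP, 855, 937 and 996 in the aged AAV-EGFP and 598, 515 and 674 in the aged AAV-B3GNT3 mice. The aged AAV-EGFP mice lay above all other mice. The change was 0.85 ± 0.19 with age (adjusted p = 0.043, passing in 1 of the 9 fits that left out a mouse) and -0.64 ± 0.18 with AAV-B3GNT3, which did not pass (adjusted p = 0.21).

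Fth1, the heavy chain of the iron store ferritin, measured 18.4, 18.3 and 28.2 CPM in the young AAV-EGFP, 49.1, 81.8 and 66.7 in the aged AAV-EGFP and 13.1, 14.8 and 28.5 in the aged AAV-B3GNT3 mice. It rose with age (1.62 ± 0.35, adjusted p = 0.04), and its log2 difference with AAV-B3GNT3 was -1.77 ± 0.35 (adjusted p = 0.065). Ubb, a polyubiquitin gene, measured 3.07, 20.6 and 11.7 CPM in the young and 24.6, 73.8 and 77.4 in the aged AAV-EGFP mice (2.32 ± 0.47, adjusted p = 0.029), from 1 to 9 UMIs per young mouse. Both are short, abundant transcripts of most cells.

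The other 5 rises were transcripts without a protein name. AC149090.1, which had no position in the annotation used, measured 602, 63.99 and 394 CPM in the young AAV-EGFP, 1015, 1232 and 1576 in the aged AAV-EGFP and 1359, 1116 and 920.4 in the aged AAV-B3GNT3 mice, and young mouse 2 was far below the others. It rose by 1.88 ± 0.40 (adjusted p = 0.038). Gm48530, a long noncoding RNA gene at chr13:3325296-3358455, measured 76.8, 86.8 and 89.2 CPM in the young and 196, 221 and 176 in the aged AAV-EGFP mice (1.22 ± 0.20, adjusted p = 0.01). Gm10754 (1.35 ± 0.27, adjusted p = 0.025) and Gm49003 (2.01 ± 0.39, adjusted p = 0.025) rose as well, the latter from 4 to 7 UMIs per young mouse.

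Some of the 24 genes also passed in other cortical neurons of the same mice. In Cux2 neurons 17 passed in the same direction, where 884 of 12131 genes passed (7.29%), and in Hs3st4 neurons 15, where 635 of 12619 passed (5.03%). These classes hold more nuclei, and since their libraries are those of the members, the counts are a description and no independent evidence.

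The number of genes that passed in the members depended on single mice. Leaving out young mouse 1, 2 or 3 gave 4, 35 and 2 genes, and leaving out aged AAV-EGFP mouse 1, 2 or 3 gave 73, 2 and 2. With the estimated free RNA subtracted 6 genes passed, all of them falls among the 24, namely Gfra1, Cacng2, Spred2, Lhfp, Pde4a and Mical2. None of the 8 rises, Sorcs1, Fth1 and Ubb included, passed under this correction, although each kept its direction. The subtracted profile is that of the nuclei themselves, neurons included, so the correction also removes neuronal transcripts. The source of the UMIs of these genes was not tested.

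With AAV-B3GNT3 in aged mice, 1 of 6282 genes passed (0.0159%), and 620 (9.87%) had an unadjusted p under 0.05. The groups did not overlap for 15.4% of genes, 7.9% higher and 7.53% lower with AAV-B3GNT3. Of all the marker lists, that of layer 5 extratelencephalic neurons, given above, and that of layer 2/3 neurons did not overlap. The latter had 60.7 to 94.8 CPM in the aged AAV-EGFP and 100.4 to 119 in the aged AAV-B3GNT3 mice. As with age, some lists are expected to separate without an effect, so this is a description only, and their part was not tested. The gene that passed was Gm15478, which lies at chr5:67642401-67646776 on the strand opposite to Atp8a1, a flippase of membrane lipids. Gm15478 measured 30.7, 50.3 and 39.9 CPM in the young AAV-EGFP, 85.9, 138 and 119 in the aged AAV-EGFP and 28.4, 22.2 and 39.9 in the aged AAV-B3GNT3 mice. The aged AAV-EGFP mice stood above all 6 other mice. It rose with age (1.51 ± 0.28, adjusted p = 0.019) and was lower with AAV-B3GNT3 (-1.89 ± 0.29, adjusted p = 0.01).

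Gm15478 did not pass without aged AAV-EGFP mouse 2 (-1.74, edgeR adjusted p = 0.066), aged AAV-B3GNT3 mouse 1 (-1.81, adjusted p = 0.17) or aged AAV-B3GNT3 mouse 2 (-1.77, adjusted p = 0.081), nor with free RNA subtracted (-1.87, adjusted p = 0.066), against -1.89 in all members of all mice. DESeq2 called 3 other genes and gave no adjusted p for Gm15478, as for 5724 of the 6282 genes. Whether the counting used strand was not given in the sources used here, so whether the UMIs of Gm15478 include reads of Atp8a1 was not settled.

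The genes next in order did not pass. Bmpr1b, the bone morphogenetic protein receptor of the profile, measured 274, 293 and 218 CPM in the aged AAV-EGFP and 142, 129.7 and 114 in the aged AAV-B3GNT3 mice, against 218, 189.7 and 190.1 in the young mice. The aged AAV-B3GNT3 mice lay below all others. The difference was -1.02 ± 0.19 (adjusted p = 0.052).

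Gm49003 (-2.09 ± 0.39, adjusted p = 0.052) and Gm6994 (-1.53 ± 0.31, adjusted p = 0.088), both opposite to Enox1, Gm13944, opposite to Zfp385b (-2.22 ± 0.42, adjusted p = 0.052), and Fth1, given above, made up the rest of the 6 genes with the smallest p. All 5 noncoding or ferritin genes among the 6 were higher in the aged AAV-EGFP mice than in every young and every aged AAV-B3GNT3 mouse.

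Differences between classes were tested directly, as the change in the members minus the change in another class of neuron of the same mice. The age change differed from that in Cux2 neurons for 3 of 10673 genes (0.0281%), and from that in Hs3st4 neurons for 2 of 11422 (0.0175%). At an unadjusted p under 0.05 these numbers were 523 (4.9%) and 602 (5.27%). Classes were fitted jointly for this, so a difference is close to but not exactly that of the separate fits.

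Gfra1 had a log2 difference of -1.90 ± 0.35 in the members and 0.30 ± 0.20 in Cux2 neurons, a difference of -2.31 ± 0.39 (adjusted p = 0.0079). Htr1f, the serotonin 1F receptor, measured 412, 345 and 420.0 CPM in the members of the young and 471, 373 and 194 in those of the aged AAV-EGFP mice, which overlap. Its log2 difference was -0.23 ± 0.25 in the members, which did not pass (adjusted p = 0.74), and 0.89 ± 0.18 in Cux2 neurons (adjusted p = 0.014), a difference of -1.23 ± 0.20 (adjusted p = 0.0063). Htr1f was higher in members with Oprk1 (401 CPM) than in those without (228 CPM) in 9 of 9 mice.

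Hs3st2, which adds a rare sulfate to heparan sulfate, measured 427, 315 and 427 CPM in the young AAV-EGFP, 188, 263 and 220.2 in the aged AAV-EGFP and 334, 374 and 339.7 in the aged AAV-B3GNT3 mice. Its values in the aged AAV-EGFP mice lay below those of all other mice. The log2 difference with age, -0.78 ± 0.19 in the members (adjusted p = 0.076), differed by -1.17 ± 0.18 from that in Cux2 neurons, 0.30 ± 0.17 (adjusted p of the difference = 0.0063). Pld5 was next and did not pass (-1.77 ± 0.35, adjusted p = 0.06).

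Against Hs3st4 neurons, Gm48530 rose less in the members. Its change with age was 1.22 ± 0.20 in the members and 3.25 ± 0.19 in Hs3st4 neurons, a difference of -2.08 ± 0.23 (adjusted p = 1.6e-05). Gm30382, at chr3:149284418-149445301, had age differences of -1.37 ± 0.28 in the members and 0.20 ± 0.14 in Hs3st4 neurons (-1.63 ± 0.28, adjusted p = 0.017). Gm28928 (-0.66 ± 0.13, adjusted p = 0.066) and Herc4 (-0.97 ± 0.19, adjusted p = 0.093) did not pass.

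**Figure D5:**
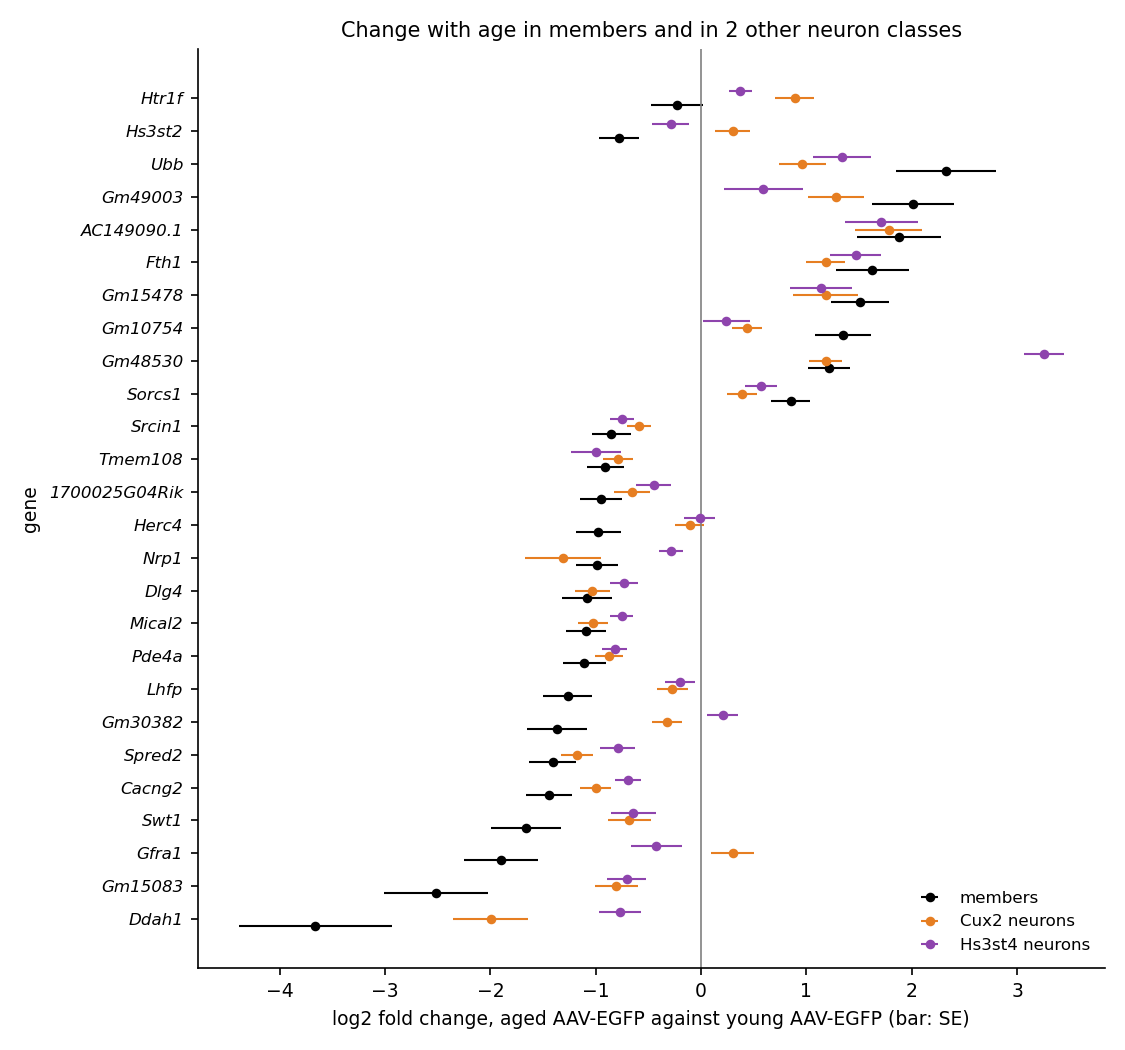
Log2 fold change of aged against young AAV-EGFP mice in members, Cux2 neurons and Hs3st4 neurons, with the SE as a bar and n = 3 mice per group, for genes that passed in the members and genes whose change differed between classes. Most genes lie on the same side of 0 in all 3 classes, while Gfra1 lies at -1.90 in members and at 0.30 in Cux2 neurons.

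The change with AAV-B3GNT3 differed from that in Cux2 neurons for 1 gene of 10673 (0.00937%), and from that in Hs3st4 neurons for 2 of 11422 (0.0175%). At an unadjusted p under 0.05 these numbers were 433 (4.06%) and 632 (5.53%). Hs3st2 had a log2 difference of 0.62 ± 0.19 in the members and -0.44 ± 0.17 in Cux2 neurons, a difference of 1.11 ± 0.19 (adjusted p = 0.021). Dlc1, a GTPase-activating protein, had one of 0.27 ± 0.19 in the members and -0.71 ± 0.13 in Hs3st4 neurons (1.05 ± 0.18, adjusted p = 0.014). Gm28928, a noncoding gene at chr1:124505757-124846039, had values of 0.03 ± 0.18 and -0.73 ± 0.15 (0.79 ± 0.13, adjusted p = 0.012). In the members neither Dlc1 nor Gm28928 passed, and in the Hs3st4 neurons both passed and were lower with AAV-B3GNT3 (adjusted p = 0.031 and 0.04). Ddah1 and Slc1a2, the glutamate transporter GLT-1, did not pass (3.79 ± 0.75 and 0.86 ± 0.18, adjusted p = 0.10 and 0.17).

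Few genes of the lists for neuronal and cellular functions passed. Across 20 lists, Nrp1 with age, on the axon guidance list, was the 1 member that passed in either comparison. The median log2 change over all 6282 genes was 0.01 with age and -0.00 with AAV-B3GNT3, and 51.2 and 49.7% of them had a positive difference. List members with an unadjusted p under 0.05 are given below as counts, beside 6.73% of all genes higher and 6.45% lower with age, and 4.06% higher and 5.81% lower with AAV-B3GNT3.

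Lists of receptors for glutamate and GABA had negative medians with AAV-B3GNT3. Of 14 ionotropic glutamate receptor genes 6 were lower and 0 higher at this level (median -0.23), and with age 1 was lower and 1 higher (median 0.07). Gria3, an AMPA receptor subunit, measured 1358, 1156 and 1241 CPM in the young AAV-EGFP, 2193, 1791 and 1516 in the aged AAV-EGFP and 1202, 1297 and 1216 in the aged AAV-B3GNT3 mice. The aged AAV-EGFP mice stood above all others, with log2 differences of 0.55 ± 0.17 (adjusted p = 0.17) and -0.56 ± 0.17 (adjusted p = 0.23). Grik3, a kainate receptor subunit, had a log2 difference of -0.56 ± 0.20 with age (adjusted p = 0.23).

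Of 5 metabotropic glutamate receptor genes, 3 were lower with AAV-B3GNT3 (median -0.49) and 0 at this level with age (median 0.21). Grm5, the main postsynaptic receptor of this family, measured 1477, 2073 and 1759.8 CPM in the young AAV-EGFP, 2533, 2136 and 1509 in the aged AAV-EGFP and 1146, 1149 and 1275 in the aged AAV-B3GNT3 mice. All 3 aged AAV-B3GNT3 mice lay below the other 6. The difference was -0.78 ± 0.19 (adjusted p = 0.15), and that of Grm8 was -0.50 ± 0.18 (adjusted p = 0.37). Of 11 GABA-A receptor genes 10 had a negative difference with AAV-B3GNT3 (median -0.29) and 10 a positive one with age (median 0.26), and the aged AAV-EGFP mice belong to both. Gabra3 was at -0.85 ± 0.23 with AAV-B3GNT3 (adjusted p = 0.18).

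The adhesion, cadherin and guidance lists had negative medians with AAV-B3GNT3. Of 30 synaptic adhesion genes, 9 were lower and 2 higher with AAV-B3GNT3 (median -0.18), among them Lrfn5 (-0.67 ± 0.20, adjusted p = 0.23). With age 3 were lower and 0 higher (median 0.10), among them Dscaml1 (-0.98 ± 0.25, adjusted p = 0.10). Of 18 cadherins and protocadherins, 4 were lower with AAV-B3GNT3 (median -0.17), with Pcdh7 at -0.70 ± 0.19 (adjusted p = 0.18) and Cdh9 at -1.06 ± 0.36 (adjusted p = 0.31). Cdh9 measured 978, 363 and 206 CPM in the aged AAV-EGFP mice, so its highest value was in the mouse with the most Oprk1, and without that mouse the difference was -0.26. Of 30 axon guidance genes, 5 were lower and 1 higher with AAV-B3GNT3 (median -0.18), and 4 lower and 1 higher with age (median -0.23). Dcc, the netrin receptor, had a log2 difference of -0.99 ± 0.27 with AAV-B3GNT3 (adjusted p = 0.18), with 2705, 1583 and 1005 CPM in the aged AAV-EGFP mice, and without aged AAV-EGFP mouse 1 the difference was -0.55. Of 8 collagen and matrix genes 2 were lower and 1 higher with age (median -0.08), with Ncan, neurocan, at -0.86 ± 0.28 (adjusted p = 0.19).

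Among ion channels, genes in both directions reached this level. Of 31 potassium channel genes 4 were lower and 1 higher with age (median 0.05) and 4 lower and 3 higher with AAV-B3GNT3 (median 0.04). Kcnip3, a calcium-binding subunit of these channels, measured 178, 149 and 284 CPM in the young AAV-EGFP, 131, 71.8 and 125 in the aged AAV-EGFP and 181, 241 and 199 in the aged AAV-B3GNT3 mice (-0.92 ± 0.26 with age, adjusted p = 0.12). Kcnv1, a silent channel subunit, had a log2 difference of 1.78 ± 0.50 with age (adjusted p = 0.12). Of 21 sodium and calcium channel genes 1 was lower with age (median -0.04), and 6 were lower and 1 higher with AAV-B3GNT3 (median -0.09), with Cacna2d1, the target of gabapentin, at -0.63 ± 0.17 (adjusted p = 0.18).

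The receptors for modulators were few. Of the opioid list, Oprm1, the μ-opioid receptor, and Oprd1, the δ-opioid receptor, could be tested beside the rule gene Oprk1, and Oprm1 was lower with AAV-B3GNT3 at an unadjusted p under 0.05. It measured 33.8, 66.3 and 39.9 CPM in the young AAV-EGFP, 102, 77.8 and 70.7 in the aged AAV-EGFP and 34.9, 3.71 and 58.8 in the aged AAV-B3GNT3 mice (0.76 ± 0.39 with age and -1.14 ± 0.40 with AAV-B3GNT3, adjusted p = 0.41 and 0.34). All 3 aged AAV-EGFP mice lay above the other 6 for Oprm1, and Oprd1 had a log2 difference of -0.19 ± 0.46 and 0.61 ± 0.43. Rxfp1, the relaxin receptor and relative of Rxfp2, had a log2 difference of 0.94 ± 0.30 with age (adjusted p = 0.18). Of 11 genes for monoamine, acetylcholine and peptide receptors 1 was lower in each comparison, Adra1b with age (-0.60 ± 0.27, adjusted p = 0.34) and Chrm3 with AAV-B3GNT3 (-0.58 ± 0.21, adjusted p = 0.37). The transmitter release list had 1 of 27 lower and 1 higher with age (median -0.05) and 2 lower and 1 higher with AAV-B3GNT3 (median 0.00), with Stx1a, a fusion protein of the synaptic terminal, at -0.71 ± 0.24 with age (adjusted p = 0.20).

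Of 19 nuclear genes of oxidative phosphorylation 5 were higher and 0 lower with age (median 0.33), and 3 lower and 0 higher with AAV-B3GNT3 (median -0.24). Ndufa4, a subunit of the respiratory chain, measured 15.4, 13.7 and 14.1 CPM in the young AAV-EGFP, 32.7, 33.9 and 38.7 in the aged AAV-EGFP and 4.36, 14.8 and 9.49 in the aged AAV-B3GNT3 mice. The aged AAV-EGFP mice lay above all others. The log2 differences were 1.30 ± 0.41 and -1.98 ± 0.45 (adjusted p = 0.18 and 0.11), and Sdha stood at 1.13 ± 0.30 with age (adjusted p = 0.10). Of 46 cytosolic ribosomal protein genes 5 could be tested, 1 of them higher with age, Rpl41 at 1.36 ± 0.56 (adjusted p = 0.29).

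Of 12 chaperone genes 3 were lower and 1 higher with age (median -0.01), with Hsp90b1 at -0.84 ± 0.29 (adjusted p = 0.21). Of 12 immediate early and activity genes 1 was lower with age (median -0.29), Homer1, a postsynaptic scaffold whose short form follows activity, at -0.86 ± 0.21 (adjusted p = 0.09), and 1 was higher with AAV-B3GNT3 (median 0.20), Egr3 at 1.20 ± 0.46 (adjusted p = 0.41). All 9 cholesterol synthesis genes had a positive difference with AAV-B3GNT3 (median 0.36), 1 of them at an unadjusted p under 0.05, and with age the median was -0.34, with Cyp51, a sterol demethylase, at 0.93 ± 0.45 (adjusted p = 0.38). Of 7 genes of the ageing and immune list 1 was higher with AAV-B3GNT3, Zbtb16 at 0.56 ± 0.21 (adjusted p = 0.38).

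A list of 6 genes that the study named in neurons was chosen on these samples and is not independent evidence of a direction. Of the 5 tested, 3 were lower with age and 2 higher with AAV-B3GNT3 (medians -0.55 and 0.47). Foxo3, a stress-response transcription factor, measured 92.1, 89.1 and 96.2 CPM in the young AAV-EGFP, 40.9, 71.8 and 73.4 in the aged AAV-EGFP and 111, 126 and 110.1 in the aged AAV-B3GNT3 mice (0.80 ± 0.23 with AAV-B3GNT3, adjusted p = 0.20).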

How the data were processed

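Nuclei from pooled cortex and hippocampus of 9 mice were profiled by single-nucleus RNA sequencing (10x Genomics 3′). Each deposited matrix is the filtered one and holds raw UMI counts for every gene and each barcode kept. The authors produced them using Cell Ranger (version 4.0.0 per the labels, 7.2.0 per the file headers) on GRCm38. No removal of free RNA or doublets had been applied to them. Gene positions are from GENCODE vM21.

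Members were selected as described above, by UMI counts and without regard to group. The members and the gene lists were chosen with earlier results of these data known. Counts were summed per mouse over the members, and over Cux2 or Hs3st4 neurons for the comparison of classes. Low genes were removed by edgeR's filterByExpr at a minimum count of 10. The sums of all 9 mice, with TMM scaling, entered a single quasi-likelihood fit (edgeR 4.0.16 in R 4.3.3), tested two-sided at a Benjamini-Hochberg adjusted p under 0.05. The 12 genes of the rule were left out of the tests. The difference between classes was an interaction term with mouse as a block. Each SE is the absolute log2 fold change divided by the root of F. Doublets were scored per library by the share of simulated doublets among neighbouring nuclei. Free RNA was taken as the profile of all barcodes in a library's filtered matrix, neurons included, scaled until the oligodendrocyte markers of the members were used up. Profile levels are CPM of raw totals, averaged over 9 mice, with 5 CPM added before log2.

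Named were the 12 largest rises and falls among genes that passed with a mean of at least 20 UMIs and groups that did not overlap, or the 6 genes with the smallest p where fewer than 6 passed. Up to 4 genes were allowed per list, of which the 2 with the smallest p in either comparison were kept, and 4 per comparison of classes. The profile took 20 genes higher and 10 lower, and the Oprk1 split 8 each way. Genes that passed beyond these 12, or with fewer UMIs, were named after their values were seen. Some genes that these rules select are not reported here.

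On simulated counts of 6290 genes in the members, the test of age recovered 47% of 2-fold and 85% of 4-fold changes, and the test of treatment 40% and 91%, with 10 and 5 calls of genes that were not changed. On simulated counts of 10682 genes, that of the difference from Cux2 neurons in treatment recovered 14% and 52%, with 2 such calls. These counts were drawn with the same mean level in both classes and without effects of a mouse shared by its classes. Recovery in the data may therefore differ. Litter and batch were not given in the sources used here, and p-values measure the spread between mice. Alternatives were DESeq2 1.42.0, RLE scaling, all genes kept, only the groups compared, a replicate block, other member rules, removal of doublets or free RNA, thinning, another pseudocount (added after the data were seen), and leaving out each mouse.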

Additional observations from a re-analysis of the deposited data

Results flagged for a closer look

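The changes of 7 genes differed between the members and another class of neurons by an interaction test in edgeR, and each is flagged because the change of 1 class was not that of the other. With age, relative to Cux2 neurons, the difference was -1.17 for Hs3st2, -1.23 for Htr1f and -2.31 for Gfra1. With age, relative to Hs3st4 neurons, it was -1.63 for Gm30382 and -2.08 for Gm48530. With AAV-B3GNT3 it was 1.11 for Hs3st2 relative to Cux2 neurons, and 0.79 for Gm28928 and 1.05 for Dlc1 relative to Hs3st4 neurons. Hs3st2 appears in both comparisons with opposite signs, and both use the aged AAV-EGFP mice. The age difference of Hs3st2 and Htr1f did not pass without aged AAV-EGFP mouse 3 (-0.98 each, edgeR adjusted p = 0.12 and 0.089), nor did that of Gfra1, which also failed without young mouse 1 (-2.36 and -1.77, adjusted p = 0.079 and 0.16). With free RNA subtracted that of Gfra1 also failed (-2.79, adjusted p = 0.069). That of Gm30382 failed without young mouse 1 or aged AAV-EGFP mouse 2 (-1.37 and -1.58, adjusted p = 0.17 and 0.12), in DESeq2 (-1.61, adjusted p = 0.17) and with free RNA subtracted (-1.85, edgeR adjusted p = 0.14), and that of Gm48530 passed with each single mouse left out. The treatment difference of Hs3st2 failed without aged AAV-EGFP mouse 3 or aged AAV-B3GNT3 mouse 1 or 2 (differences of 0.92 to 1.17, edgeR adjusted p = 0.22, 0.18 and 0.050), with doublets removed (1.08, adjusted p = 0.060) and with free RNA subtracted (1.21, adjusted p = 0.20). That of Gm28928 failed without aged AAV-EGFP mouse 2 or aged AAV-B3GNT3 mouse 3 (0.75 and 0.72, adjusted p = 0.071 and 0.25), and that of Dlc1 without aged AAV-EGFP mouse 3 or aged AAV-B3GNT3 mouse 2 or 3 (differences of at least 0.91, adjusted p = 0.11, 0.061 and 0.25). Each of the 8 differences also lost its call under at least 1 other rule for the members (at least 3 markers, Oprk1 or Col24a1 members alone, or no upper limit). Groups of 3 mice are too small for a search for single outlying mice.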

How the results depend on the processing

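The share of members kept its direction with age under every alternative tried, with a difference of 0.893 to 3.23 percentage points when single mice were left out, whereas the treatment difference of -1.05 ran from -2.18 to 0.156 and changed sign without aged AAV-EGFP mouse 3. No permutation p of these fell under 0.05. The 24 genes that passed with age kept their direction wherever an alternative tested them, but their number did not hold. It was 115 with no filter on low counts, 13 with only the groups compared, 6 with free RNA subtracted, 0 with at least 3 of 5 markers, 0 in Oprk1 members alone and 1 in Col24a1 members alone, the last 3 with fewer nuclei. The 2 counts of 0 stood beside 156 and 360 genes at an unadjusted p under 0.05 in edgeR. With treatment, 3 passed in DESeq2, which gave no adjusted p for 5724 genes, 75 with no filter, 10 with only the groups compared, 3 with no upper limit on genes and 0 with at least 3 markers, in Oprk1 members, in Col24a1 members or with free RNA subtracted, where 111, 368, 100 and 479 genes had an unadjusted p under 0.05 (363 in DESeq2 on all members). Against Cux2 neurons, with age, 34 passed with no filter, 6 with only the groups compared, 33 with 3 markers, 7 in Oprk1 members, 13 in Col24a1 members and 0 with no upper limit. With treatment, these were 18, 2, 11, 4, 2 and 0, and 0 with doublets removed or free RNA subtracted. At an unadjusted p under 0.05 the counts of 0 against Cux2 neurons stood beside 574 genes with age and 470.0, 423 and 333 with treatment. Against Hs3st4 neurons, with age, 1 passed in DESeq2, 20 with no filter, 16 with 3 markers, 8 in Oprk1 members and 1 with free RNA subtracted. With treatment, 45 passed with no filter, 7 with 3 markers, 4 in Oprk1 members, 1 in Col24a1 members and 1 with no upper limit. The set with at least 3 markers and the Col24a1 set each held 1 to 13 members per mouse. Their counts against both classes thus rest on few nuclei, and a higher count there does not show a sharper difference between classes. The profile held 17 higher genes with 3 markers, a setting added after the data were seen. Where no construction of the alternative shows it, the cause was not tested.

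Deviations from the group mean had correlations of -0.06 to 0.10 between same-numbered mice and of -0.15 to 0.13 between mice with different numbers. These values hold counting error as well, so they cannot exclude that replicate numbers pair the mice. With a replicate block 22 genes passed with age, 4 with treatment, 14 and 4 in the comparison with Cux2 neurons, and 2 and 4 in that with Hs3st4 neurons.

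Leaving out single mice gave 2 to 73 genes with age and 0 to 24 with treatment. Against Cux2 neurons it gave 2 to 19 and 0 to 6, and against Hs3st4 neurons 1 to 9 and 0 to 16, in the same order. Of single genes, 8 values changed sign, none of them past the threshold. In Col24a1 members these were Slc1a2 (-0.12, treatment against Hs3st4 neurons), Grik3 (0.23, age) and Foxo3 (0.76, age), in Oprk1 members Adra1b (0.52, age), and with 3 markers Rxfp1 (-0.91, age), Kcnip3 (0.28, age, and -0.19, treatment) and Dcc (-0.11, age). Tests of genes with nuclei thinned to 3000 UMIs were not run, since some mice then had 0 members. On counts simulated at the depth of the unthinned members, 47% of 2-fold changes were recovered with age and 40% with treatment, so changes of this size or smaller could go undetected.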

Other observations

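Genes of low count among the 4 with the smallest p of each comparison of classes varied strongly among mice. Vwc2l, a secreted protein gene that was higher in members with Oprk1, measured 24.6, 66.3 and 2.35 CPM in the members of the young AAV-EGFP, 40.9, 49.9 and 22.7 in those of the aged AAV-EGFP and 6.55, 3.71 and 3.80 in those of the aged AAV-B3GNT3 mice. Its treatment change minus that in Cux2 neurons was -3.00 ± 0.65 (edgeR, adjusted p = 0.17). Pard3b, a cell polarity gene, measured 3.07, 18.3 and 30.5 CPM in the young AAV-EGFP, 0, 5.98 and 2.67 in the aged AAV-EGFP and 37.1, 11.1 and 26.6 in the aged AAV-B3GNT3 mice (3.47 ± 0.73, adjusted p = 0.17). Angpt1, another gene of the members with Oprk1, measured 46.1, 50.3 and 16.4 CPM in the young AAV-EGFP, 24.6, 33.9 and 12.01 in the aged AAV-EGFP and 26.2, 55.6 and 47.4 in the aged AAV-B3GNT3 mice (1.96 ± 0.41, adjusted p = 0.17). None of the 3 passed.

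Layer 6b markers summed to 7.30 to 50.9 CPM in the members of the aged AAV-B3GNT3 mice, which overlaps the range of the aged AAV-EGFP mice and lies below that of the young mice.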
